A study of Mus musculus with 6 samples.

Results

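The genes of Wnt signalling outside the cell and at its surface were followed over cultured mouse heart cells. The members were chosen by symbol: the Wnt ligands, the frizzled receptors (Fzd), the secreted frizzled-related proteins (Sfrp), the Dickkopf proteins (Dkk), the R-spondins (Rspo), and Frzb, Wif1, Notum, Apcdd1, Axin2, Lgr5, Lrp5 and Lrp6. They were 49 of the 19505 genes on the array. Each had 1 probe set, and the rule uses no measured value. Of the 49, 19 were ligands, 12 receptors or co-receptors, 7 secreted inhibitors, 5 R-spondins or their receptor Lgr5, 5 Dickkopf proteins or Apcdd1, and 1 the feedback target Axin2.

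Cardiac fibroblasts (CF) and cardiomyocytes (CM) were each cultured for 48 h with what Ccrl2+ macrophages had secreted (the Ccrl2+ secretome), with the Ccrl2- secretome, or with PBS, where array titles say sham. Both macrophage populations came from a pool of 6 wild-type hearts, taken 1 week after transverse aortic constriction (TAC), which overloads the left ventricle. All samples are labelled as heart, C57BL/6N and 15 to 16 weeks of age. The protocols speak of co-culture with the macrophages and the source labels of their secretome, and the source labels were followed. Each of the 6 groups was 1 array, which leaves the spread between samples unknown. Differences below therefore have no replicate check and no p-value, and their precision is limited by this number of arrays. The pooled hearts are a further limit, since macrophages of single animals were not kept apart.

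Wnt proteins are lipid-modified ligands that bind a frizzled receptor together with the co-receptors Lrp5 or Lrp6. In the canonical branch this keeps beta-catenin from being degraded, and TCF/LEF factors with beta-catenin then switch on target genes such as Axin2. R-spondins raise the number of receptors at the surface. The Sfrp proteins, Frzb and Wif1 bind ligands outside the cell, Notum removes their lipid, and Dkk1, Dkk2 and Dkk4 bind the co-receptors. In the heart the pathway is largely quiet in the healthy adult and is known to act in fibroblasts after injury.

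Values are log2 probe set summaries, called levels here, and a difference of 1 between arrays is 2-fold. A gene was counted in a comparison when its higher level reached a floor of 6.55, the median of all named probe sets, and it was counted as higher or lower when its difference also reached 2-fold. The floor is close to background: negative controls had array medians of 6.2 to 6.71, and their 95th percentile over all arrays was 10.51. Where the lower of a pair of levels lay under the floor, the difference against the floor is given as a lower bound. Over the 7 comparisons made, 12.9% to 30.6% of the negative controls that reached the floor were 2-fold apart or more, as were 1.89% to 15.1% of the positive controls. Levels of different genes come from different probes and are not set against each other. The frizzled genes are related in sequence and their probes could bind more than 1 of them, which was not tested.

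The fibroblast markers used to describe the cell types were at least 2-fold higher in CF than in CM for 8 of 8 genes (PBS arrays, median difference 7.56). The cardiomyocyte markers were lower for 8 of 8 (median -8.61). Endothelial markers were at least 2-fold lower in CF for 5 of 6 genes (median -5.29), so the cardiomyocyte arrays carried endothelial transcripts. The fibroblast marker Dcn, with the smallest gap of its list (2.19), lay at 17.53 in CF and 15.34 in CM. Tcf21 (6.2) and Fmod (3.96) lay under the floor in CM. Macrophage markers reached the floor for 7 of 7 genes in CF and 6 of 7 in CM, for example Lyz2 at 12.52 in CF and 12.88 in CM. In such mixed cultures fewer cells of a type and less RNA per cell cannot be told apart, and this holds for each comparison.

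Of the 49 genes, 19 reached the floor on at least 1 array (38.8%, against 55.3% of all genes), 13 on all 6 arrays, and 12 reached 10.51 on at least 1. The roles differed in how many members reached the floor. These were 10 of 12 receptors and co-receptors, 3 of 7 secreted inhibitors, 3 of 5 in the R-spondin group, 2 of 5 in the Dkk and Apcdd1 group, and 1 of 19 ligands. The 12 that reached 10.51 were 8 receptors or co-receptors, 3 secreted inhibitors and 1 of the Dkk and Apcdd1 group, with 0 ligands and 0 of the R-spondin group. The other 18 ligands lay between 2.81 and 6.3 on every array, with Wnt4 at 6.3 in CF with the Ccrl2- secretome nearest to the floor. Just past it was Fzd3, whose highest level was 6.83.

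Several ligand genes are direct neighbours of another in the RefSeq gene table: Wnt6 with Wnt10a, Wnt3a with Wnt9a, Wnt9b with Wnt3, and Wnt10b with Wnt1. All of these lay under the floor on all 6 arrays. The secreted inhibitors Sfrp4, Sfrp5, Wif1 and Notum did so too (2.77 to 5.87), as did Dkk1, Dkk2 and Dkk4 (2.49 to 4.42). So did the receptors Fzd9 and Fzd10 (4.15 to 5.58), and Rspo4 and Lgr5 (3.93 to 5.86). Axin2, the feedback inhibitor often read as a sign of canonical signalling, lay between 3.82 and 4.53, so differences in it were not measurable here.

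Promoter sequence is shown for 4 genes, a pair of secreted inhibitors and a pair of receptors, of which Sfrp2, Frzb and Fzd7 were higher and Fzd4 a little over 2-fold lower in fibroblasts. They are the 4 members with the widest spread over the fibroblast arrays among those past 10.51 there that had a usable window. Each is the 250 bases before the gene's start in RefSeq, build GRCm38.p6, read 5′ to 3′ on the gene's strand. Capitals mark a match to the TCF/LEF motif CTTTGA on either strand. The Frzb window is chr2:80447397-80447646, minus strand.
Frzb promoter: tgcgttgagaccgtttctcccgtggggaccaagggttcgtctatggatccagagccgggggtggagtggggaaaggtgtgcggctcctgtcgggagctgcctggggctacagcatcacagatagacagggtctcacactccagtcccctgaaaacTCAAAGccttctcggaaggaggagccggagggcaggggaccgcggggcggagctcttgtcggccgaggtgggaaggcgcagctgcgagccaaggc
The Sfrp2 window is chr3:83766071-83766320, plus strand.
Sfrp2 promoter: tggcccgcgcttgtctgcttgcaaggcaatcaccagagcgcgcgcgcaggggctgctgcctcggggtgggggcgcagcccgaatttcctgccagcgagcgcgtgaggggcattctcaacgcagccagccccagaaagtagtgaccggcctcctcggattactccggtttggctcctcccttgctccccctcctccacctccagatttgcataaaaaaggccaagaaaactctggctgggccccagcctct
The Fzd7 window is chr1:59481897-59482146, plus strand.
Fzd7 promoter: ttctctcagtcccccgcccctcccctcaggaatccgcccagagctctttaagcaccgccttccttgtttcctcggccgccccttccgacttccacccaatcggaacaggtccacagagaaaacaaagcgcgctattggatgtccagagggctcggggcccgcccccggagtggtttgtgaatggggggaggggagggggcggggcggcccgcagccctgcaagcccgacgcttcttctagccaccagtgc
The Fzd4 window is chr7:89404116-89404365, plus strand.
Fzd4 promoter: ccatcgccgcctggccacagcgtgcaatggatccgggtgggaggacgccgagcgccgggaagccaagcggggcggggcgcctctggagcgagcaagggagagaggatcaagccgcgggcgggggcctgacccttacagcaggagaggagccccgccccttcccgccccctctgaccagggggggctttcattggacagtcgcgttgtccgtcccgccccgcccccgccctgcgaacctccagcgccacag
The windows held 64.4% G and C in Frzb, 63.6% in Sfrp2, 65.2% in Fzd7 and 72.8% in Fzd4, against a median of 52.4% over all 32851 windows. The TCF/LEF motif was found in Frzb, starting 95 bases before the gene's start, and in no other of the 4. Of the 30 members with a window, 5 held it (Dkk1, Frzb, Fzd1, Wnt11 and Wnt5b), and 13.8% of all windows did. For each motif here members are counted as genes, with a match in any window, while the shares count single windows. The NF-kB consensus motif was in 3 of the 30 (Fzd5, Wnt10b and Wnt16) and in 7.25% of all windows, and a stricter form of it in 0 of the 30 and in 1.21%. A match is a description of letters, not of binding.

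Among the ligands, Wnt5a, known mainly for signalling outside the beta-catenin branch, lay at 8.59 with the Ccrl2+ secretome, 8.81 with the Ccrl2- secretome and 9.77 in PBS in CF. In CM it was near the floor, at 6.84 with Ccrl2+, 6.53 with Ccrl2- and 6.38 in PBS. Each fibroblast array was thus above each cardiomyocyte array, and the fibroblast array in PBS was the highest of the 6. How many of all genes had this order was not counted.

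Of the R-spondins, which sustain Wnt receptors at the surface, Rspo1 lay at 8.65 with Ccrl2+, 7.92 with Ccrl2- and 7.98 in PBS in CF, and between 5.57 and 5.84 in CM. Rspo2 lay at 6.77 with Ccrl2+, 7.5 with Ccrl2- and 8.09 in PBS in CF, and between 5.18 and 5.3 in CM. Rspo3 passed the floor on 1 array only, the CF array with the Ccrl2- secretome (7.53), against 5.93 with Ccrl2+ and 6.0 in PBS, and lay between 4.81 and 5.84 in CM. All 3 genes lay under the floor on every cardiomyocyte array.

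Among the receptors, Fzd2 lay at 13.58 with Ccrl2+, 12.09 with Ccrl2- and 13.78 in PBS in CF, and at 8.55, 9.42 and 8.74 under the same conditions in CM. Fzd8 lay at 11.11 with Ccrl2+, 9.98 with Ccrl2- and 11.67 in PBS in CF, and between 8.53 and 9.01 in CM. Fzd7 lay at 11.95 with Ccrl2+, 10.75 with Ccrl2- and 11.36 in PBS in CF, and at 9.01, 9.6 and 8.43 in CM. Every fibroblast array exceeded every cardiomyocyte array for these receptors, and the lowest fibroblast array was the Ccrl2- one for each of them. The share of all genes with either order was not counted. Fzd1 had the same order between cell types, with 10.53 (Ccrl2+), 11.41 (Ccrl2-) and 10.98 (PBS) in CF and 8.69 to 9.29 in CM, but its highest fibroblast array was the Ccrl2- one.

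Fzd4, a receptor known for its role in blood vessels, and Fzd6, a receptor of planar cell polarity, ran the other way. Fzd4 lay at 10.34 with Ccrl2+, 9.63 with Ccrl2- and 10.67 in PBS in CF, and between 11.78 and 11.97 in CM. Fzd6 lay at 10.12 with Ccrl2+, 9.72 with Ccrl2- and 10.9 in PBS in CF, and between 11.83 and 12.34 in CM. Fzd5 overlapped between the cell types, with 7.26 (Ccrl2+), 7.93 (Ccrl2-) and 8.9 (PBS) in CF and 7.58 to 8.11 in CM. Fzd3 straddled the floor in both, with 5.48 to 6.83 in CF and 6.2 to 6.7 in CM, so no order is read from it.

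The co-receptors varied little within a cell type. Lrp5 lay between 11.57 and 12.29 in CF and between 10.94 and 11.4 in CM. Lrp6 lay between 11.56 and 12.11 in CF and between 10.83 and 11.03 in CM. For both genes all 3 fibroblast arrays lay above all 3 cardiomyocyte arrays, an order whose share among all genes was not counted.

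Of the secreted inhibitors, Sfrp2 lay at 14.5 with Ccrl2+, 14.92 with Ccrl2- and 15.69 in PBS in CF, and at 7.29, 8.26 and 6.73 in CM. Sfrp1 lay at 14.35 with Ccrl2+, 13.43 with Ccrl2- and 14.58 in PBS in CF, and between 6.43 and 6.88 in CM, at the floor. Frzb, another frizzled-related inhibitor, lay at 13.31 with Ccrl2+, 14.01 with Ccrl2- and 12.67 in PBS in CF, and between 8.1 and 8.61 in CM. The 3 inhibitors did not share an order among the fibroblast arrays: the array in PBS was the highest for Sfrp1 and Sfrp2 and the lowest for Frzb.

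Dkk3, a Dickkopf relative that does not act on Lrp co-receptors in the way of Dkk1, lay at 13.6 with Ccrl2+, 10.84 with Ccrl2- and 11.3 in PBS in CF, and between 13.67 and 13.76 in CM. The Ccrl2+ fibroblast array was thus almost at the cardiomyocyte level, and the other fibroblast arrays were well below it. Apcdd1, a membrane protein that binds Wnt ligands and dampens signalling, lay at 10.48 with Ccrl2+, 8.37 with Ccrl2- and 9.6 in PBS in CF, and at 8.62, 8.73 and 7.56 in CM. Its Ccrl2- fibroblast array fell inside the cardiomyocyte range and the other 2 lay above it.

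**Figure D1:**
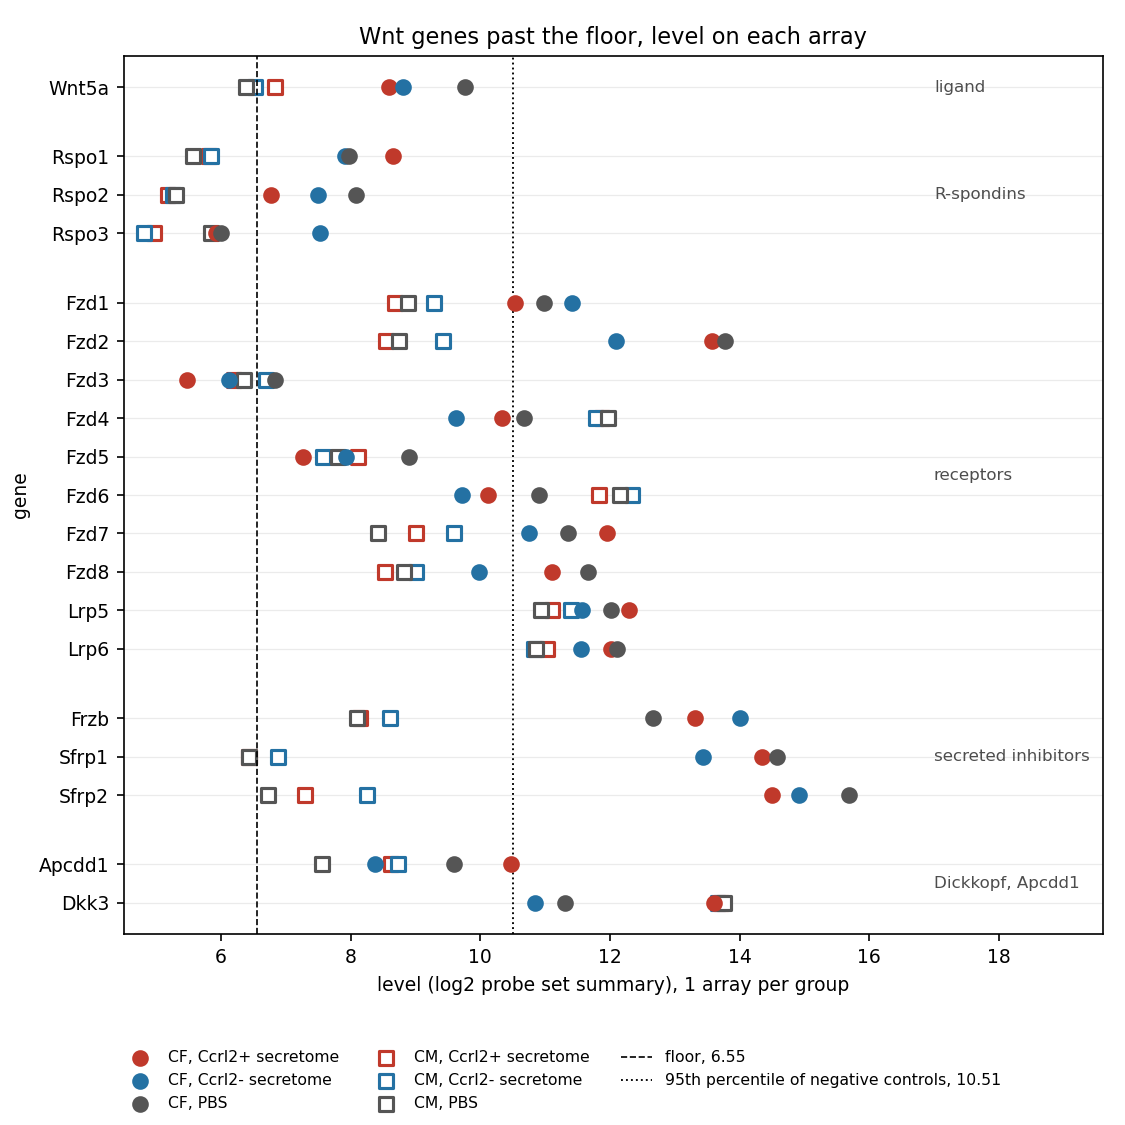
Level of the 19 Wnt genes that reached the floor on at least 1 array, as log2 probe set summary on the horizontal axis, with 1 point per array; filled circles are cardiac fibroblasts (CF), open squares cardiomyocytes (CM), and colour gives the secretome or PBS. The dashed line is the floor of 6.55 and the dotted line the 95th percentile of negative controls, 10.51; Sfrp1 and Sfrp2 lie at 13.43 to 15.69 in CF and at 6.43 to 8.26 in CM, while the Ccrl2+ fibroblast point of Dkk3 (13.6) lies beside the CM points.

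In PBS, fibroblasts carried higher levels of most measured Wnt genes than cardiomyocytes did. Among 18 members past the floor, 14 had a CF level at least 2-fold above that of CM and 3 a lower one (Dkk3, Fzd4 and Fzd6), together 94.4%. Over all genes past the floor 13.9% were higher and 16.9% lower, 30.8% in all. The median difference of these members was 2.255, against 0.01 over all genes past the floor. Negative controls past the floor had a median of 0.55 and positive controls of 0.2, so background signal was higher in CF too. Members that passed through only 1 array had to differ, so the 13 past the floor on both arrays are given as well. Of these 10 were higher and 3 lower, with a median of 2.04. The 30.8% and 0.01 are for all genes past the floor on either array. Values for all genes past it on both were not computed.

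Sfrp2 and Sfrp1 had the largest differences of the 18, and the third secreted inhibitor, Frzb, the fourth largest. Sfrp2 was higher in CF by 8.96, with its CM level of 6.73 close to the floor. Sfrp1 was higher by at least 8.03 and Frzb by 4.57. As large a difference in either direction was seen in 0.154% of genes past the floor for Sfrp2, 0.356% for Sfrp1 and 2.80% for Frzb.

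Among the receptors, Fzd2 was higher in CF by 5.04, Fzd7 by 2.93, Fzd8 by 2.85 and Fzd1 by 2.10. Lrp6 (1.25), Fzd5 (1.10) and Lrp5 (1.07) were only just past 2-fold, and 20.2% to 27.9% of negative controls were as far apart. The ligand Wnt5a was higher by at least 3.22, and Rspo2 and Rspo1 by at least 1.54 and 1.43. Lower in CF were Dkk3 (-2.46), Fzd4 (-1.30) and Fzd6 (-1.25), and the last 2 were as small against background as Lrp6, with 18.3% and 20.2% of negative controls as far apart. Beside Fzd4 and Fzd6, Cdh5, an adhesion molecule of endothelial cells, lay at 10.49 in CF and 15.57 in CM, and Pecam1 at 8.31 and 13.87. Of the 6 endothelial markers 5 were lower in CF, and Tek was not (11.06 in CF and 10.72 in CM). The part of endothelial cells in the Fzd4 and Fzd6 values was not tested.

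**Figure D2:**
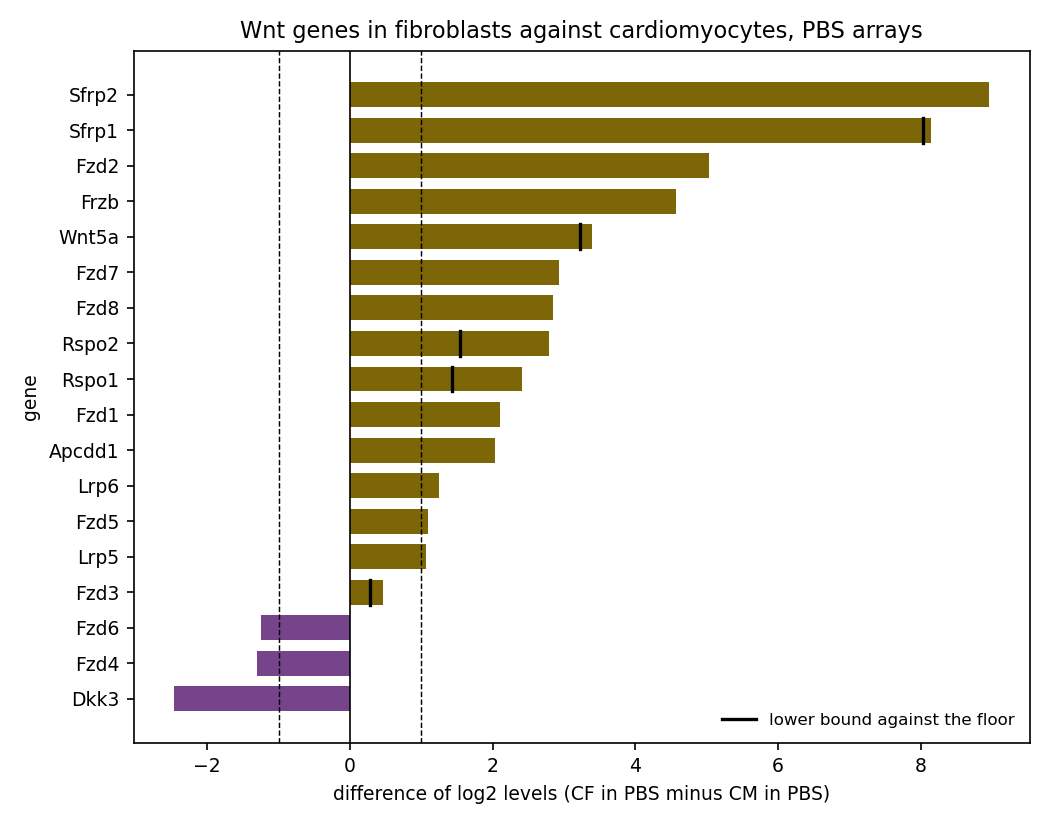
Difference of log2 levels, fibroblasts (CF) in PBS minus cardiomyocytes (CM) in PBS, for the 18 Wnt genes past the floor in this pair of arrays (1 array each); dashed lines mark 2-fold and black ticks the lower bound where the CM level is under the floor. Bars run from -2.46 for Dkk3 to 8.96 for Sfrp2, and 15 of 18 point towards CF.

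The first secretome comparison asked what factors of Ccrl2+ macrophages did in fibroblasts. With that secretome, Dkk3 was higher than in PBS by 2.30 (13.6 against 11.3) and 5 members were at least 2-fold lower. They were the receptors Fzd5 (7.26 against 8.9, difference -1.64) and Fzd3, Rspo2 (6.77 against 8.09, -1.32), the inhibitor Sfrp2 (14.5 against 15.69, -1.19) and the ligand Wnt5a (8.59 against 9.77, -1.18). These 6 were 33.3% of the 18 members past the floor, while 11.0% of all genes past the floor were called, 4.87% higher and 6.13% lower. Of the 17 members past the floor on both arrays, 1 was higher and 4 were lower. The matching share of all genes was not counted.

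Dkk3 stood furthest out: 1.44% of genes and 2.47% of negative controls were as far apart. For Sfrp2 and Wnt5a these shares were larger, 7.90% and 8.05% of genes and 13.1% and 13.3% of negative controls. Fzd3 was lower by at least 0.28 only, since 5.48 lies under the floor. With a floor of 10.51, Dkk3 and Sfrp2 were past 2-fold among the 12 members left, against 10.0% of genes. The other members ranged from -0.78 (Fzd6) to 0.88 (Apcdd1), with Lrp6 at -0.09, Fzd2 at -0.20 and Sfrp1 at -0.23. The median over the 18 members was -0.28 and over the 17 past the floor on both arrays -0.23. Over all genes past the floor on either array it was -0.07.

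The Ccrl2+ fibroblast array also carried more transcripts of cardiomyocytes, the cells in which Dkk3 was high. All 7 cardiomyocyte markers past the floor were higher than in PBS, 3 of them by at least 2-fold, with a median of 0.96. Myoz2 lay at 9.8 against 7.34 and Myh6 at 11.13 against 9.63, while Ryr2 stayed under the floor on both arrays (6.22 against 4.43). The median level of the list was 9.22 with Ccrl2+, 7.63 with Ccrl2- and 7.77 in PBS in CF, against 16.37 to 16.49 on the CM arrays. Between the PBS arrays of CF and CM the difference was -2.46 for Dkk3 and -9.20 for Myoz2. Of 7 epicardial and mesothelial markers 4 were higher and 3 lower, with a median of 0.26, from -3.05 (Aldh1a2, 8.88 against 11.93) to 2.72 (Msln, 13.28 against 10.56). The part of these cells in the Dkk3 value was not tested.

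The secretome of Ccrl2- macrophages was set against PBS in the same way. Here 6 members were at least 2-fold lower and 2 higher, 42.1% of the 19 past the floor, against 11.0% of all genes (4.83% lower and 6.18% higher). Of the 17 members past the floor on both arrays, 6 were lower and 1 was higher. The matching share of all genes was not counted. Of the 6 lower members 4 were frizzled receptors. Fzd2 lay at 12.09 against 13.78 and Fzd8 at 9.98 against 11.67, each a difference of -1.69. Fzd6 lay at 9.72 against 10.9 (-1.18) and Fzd4 at 9.63 against 10.67 (-1.04). The secreted inhibitor Sfrp1 lay at 13.43 against 14.58 (-1.15) and Apcdd1 at 8.37 against 9.6 (-1.23).

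Of the 10 receptors past the floor, 9 lay below 0, with a median of -0.835. Fzd1 was the exception at 0.43, and the co-receptors Lrp5 and Lrp6 were at -0.44 and -0.55. Over all 19 members 16 lay below 0, with a median of -0.70. Over the 17 past the floor on both arrays 15 did, with a median of -0.77. All genes past the floor on either array had a median of -0.09. As large a difference as that of Fzd2 and Fzd8 was seen in 4.40% of genes and 3.41% of negative controls, and as large a one as that of Fzd4 in 10.4% and 12.0%.

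The members higher with the Ccrl2- secretome were Frzb, by 1.34 (14.01 against 12.67), and Rspo3, by at least 0.98 (7.53 against 6.0), whose bound falls short of 2-fold. Frzb was thus higher on the array on which Sfrp1 was lower, and Sfrp2 lay between them at -0.77. Wnt5a (-0.96) and Fzd5 (-0.97) came just short of 2-fold, and Dkk3 was at -0.46. With the floor at 10.51, 6 of the 12 members left were past 2-fold, against 12.1% of genes: Fzd2, Fzd4, Fzd6, Fzd8, Sfrp1 and Frzb.

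Fibroblast markers moved with these values. Of 8, 7 were lower than in PBS, 3 by at least 2-fold, with a median of -0.66, although Dcn lay at 17.66 against 17.53. All 6 endothelial markers were lower too, with a median of -0.56 and 0 at 2-fold. Of 7 epicardial and mesothelial markers 5 were lower (median -0.59), and macrophage markers ranged from -1.80 to 2.76. The median level of the fibroblast list was 14.88 with Ccrl2- and 15.81 in PBS, and all 8 were past the floor on both arrays. The part of cell composition in the receptor values was not tested.

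**Figure D3:**
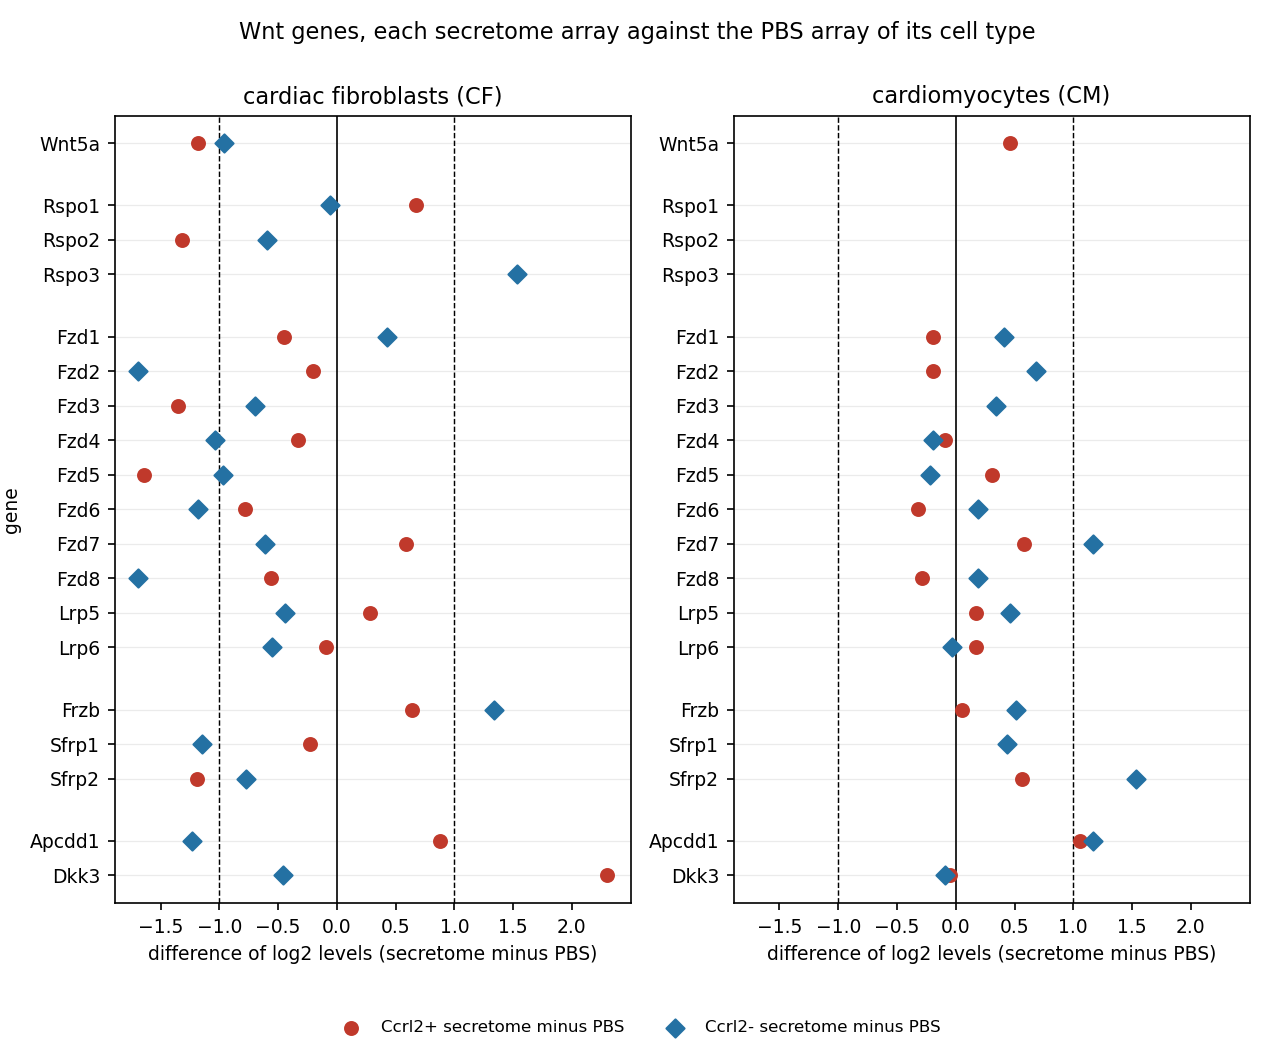
Difference of log2 levels, secretome minus PBS, for the Wnt genes past the floor in each pair of arrays, in fibroblasts (left) and cardiomyocytes (right); red circles are the Ccrl2+ and blue diamonds the Ccrl2- secretome, and dashed lines mark 2-fold. In fibroblasts 16 of 19 Ccrl2- points lie below 0 and Dkk3 with Ccrl2+ stands at 2.30, while in cardiomyocytes 11 of 15 Ccrl2- points lie above 0; both colours in a panel share 1 PBS array.

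The fibroblast arrays of both secretomes share the PBS array, so their differences from it are not independent. Side by side, Wnt5a was at -1.18 with Ccrl2+ and -0.96 with Ccrl2-, Fzd5 at -1.64 and -0.97, Fzd6 at -0.78 and -1.18, and Sfrp2 at -1.19 and -0.77. In the same order Dkk3 was at 2.30 and -0.46, Apcdd1 at 0.88 and -1.23, and Fzd7 at 0.59 and -0.61.

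Set directly against each other, the fibroblast arrays differed in 6 members by at least 2-fold, 5 higher with the Ccrl2+ than with the Ccrl2- secretome and 1 lower. That was 33.3% of the 18 past the floor, while 18.6% of all genes were called, 8.55% higher and 10.1% lower. Of the 17 members past the floor on both arrays, 5 were higher and 0 lower. The matching share of all genes was not counted. Higher with Ccrl2+ were Dkk3 by 2.76 (13.6 against 10.84), Apcdd1 by 2.11 (10.48 against 8.37), Fzd2 by 1.49 (13.58 against 12.09), Fzd7 by 1.20 (11.95 against 10.75) and Fzd8 by 1.13 (11.11 against 9.98). Rspo3 was lower by at least 0.98 (5.93 against 7.53).

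Of the receptors past the floor 7 of 9 were higher with Ccrl2+, with a median of 0.71, and the lower ones were Fzd1 (-0.88) and Fzd5 (-0.67). The median of all 18 members was 0.585 and that of the 17 past the floor on both arrays 0.71. Over all genes past the floor on either array it was 0.0. Dkk3 and Apcdd1 were exceeded or matched in size by 2.70% and 4.84% of genes, and Fzd7 and Fzd8 by 13.9% and 15.5%, so the last 2 lie within the range that many genes and negative controls (13.8% and 15.5%) spanned between these arrays. The ligand Wnt5a (-0.22) and the inhibitor Sfrp2 (-0.42) differed little, while Sfrp1 (0.92) and Frzb (-0.70) lay on opposite sides of 0. All 7 cardiomyocyte markers past the floor were higher with Ccrl2+ here too, with a median of 1.48, and 6 of them by at least 2-fold. Of the 8 fibroblast markers 4 were higher and 4 lower, with a median of 0.14. Epicardial and mesothelial markers were higher for 5 of 7 genes, 4 of them by at least 2-fold (median 1.06, from -5.77 to 3.31), and endothelial markers for 5 of 6 (median 0.57). Macrophage markers ranged from -4.02 to 2.96, with a median of 0.01. The part of these cell types in the Wnt gene values was not tested.

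**Figure D4:**
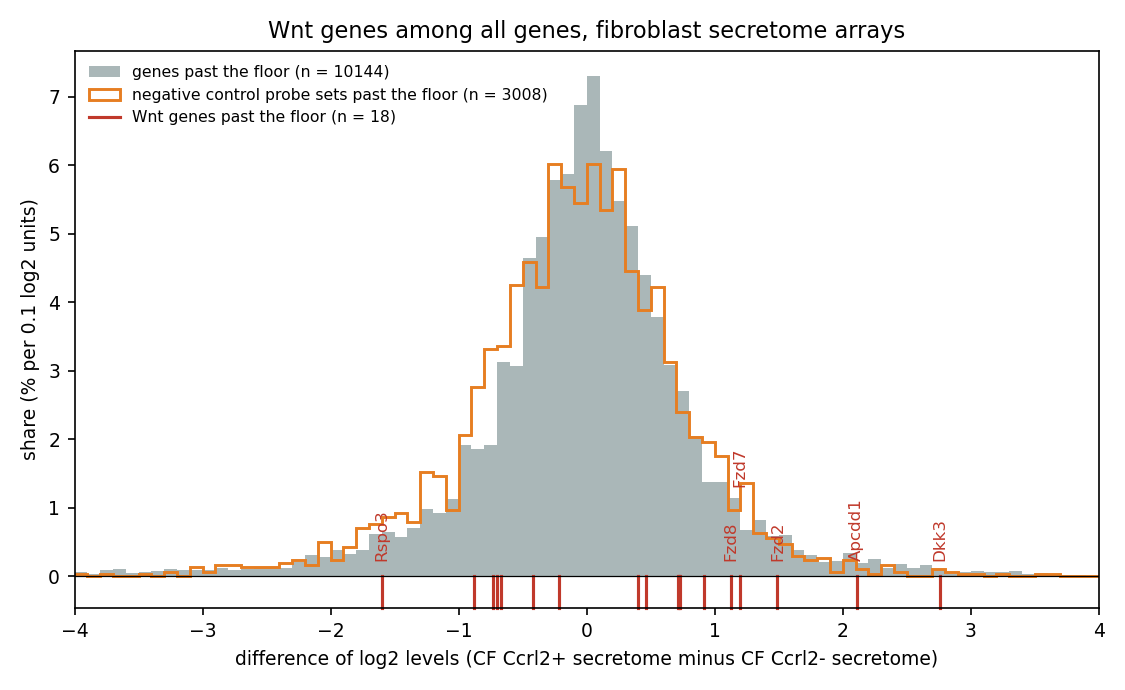
Distribution of the difference of log2 levels between the fibroblast arrays, Ccrl2+ secretome minus Ccrl2- secretome, for 10144 genes (grey) and 3008 negative control probe sets (orange line) past the floor, as share per bin of 0.1; red ticks are the 18 Wnt genes, named where they reach 2-fold. Dkk3 (2.76) and Apcdd1 (2.11) lie in the right tail, Fzd7 and Fzd8 lie among many negative controls, and 1.04% of genes lie beyond the axis limits of 4.

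Cardiomyocytes differed much less between their arrays. With the Ccrl2+ secretome, 1 of 14 members past the floor was at least 2-fold higher than in PBS and 0 were lower (7.14%), while 0.839% of all genes were called, 0.210% higher and 0.629% lower. It was Apcdd1, at 8.62 against 7.56 (difference 1.06). The remaining members lay between -0.32 (Fzd6) and 0.58 (Fzd7), with Dkk3 at -0.05, Frzb at 0.05 and Fzd4 at -0.09. The median was 0.11, against -0.01 over all genes.

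With the Ccrl2- secretome, 3 of 15 members were at least 2-fold higher than in PBS and 0 lower (20.0%), while 1.53% of all genes were called, 0.746% higher and 0.786% lower. Sfrp2 lay at 8.26 against 6.73 (1.53), a difference matched in size by 0.219% of genes past the floor. Fzd7 lay at 9.6 against 8.43 and Apcdd1 at 8.73 against 7.56, both 1.17. Fzd2 (0.68), Frzb (0.51), Lrp5 (0.46), Sfrp1 (0.44) and Fzd1 (0.41) were above 0, and 11 of the 15 were, with a median of 0.41 against -0.02 over all genes. With a floor of 10.51 instead, 0 of the 5 members left were called over PBS with either secretome. Of the negative controls, 7.47% differed by as much as Sfrp2 and 13.4% by as much as Fzd7 and Apcdd1.

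Fibroblast markers were higher on the Ccrl2- cardiomyocyte array as well. All 7 of those past the floor were above PBS, 3 by at least 2-fold, with a median of 0.91. Col3a1 lay at 10.93 against 8.78, Col1a1 at 11.3 against 10.13 and Tcf21 at 7.52 against 6.2, while Fmod stayed under the floor (4.01 against 3.96). The median level of the list was 9.92 with Ccrl2+, 10.56 with Ccrl2- and 9.04 in PBS in CM, against 14.88 to 15.81 on the CF arrays. With the Ccrl2+ secretome 6 of 7 were above PBS, with a median of 0.11 and 0 at 2-fold. With Ccrl2-, all 4 epicardial and mesothelial markers past the floor were higher too (median 0.81, Lrrn4 at 1.58). Of 5 smooth muscle and pericyte markers past the floor 4 were higher and 1 lower, with a median of 0.44. Of these, Rgs5 alone reached 2-fold (8.41 against 7.17), and Abcc9 lay at 11.42 against 11.43. All 6 macrophage markers past the floor were lower than in PBS, with a median of -0.44 with Ccrl2- and of -0.81 with Ccrl2+, where 3 reached 2-fold. The part of these cell types in the Sfrp2, Fzd7 and Apcdd1 values was not tested.

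Between the cardiomyocyte secretome arrays 0 of 16 members reached 2-fold, while 0.310% of all genes did, 0.130% higher and 0.180% lower. With Ccrl2+, 11 of the 16 lay below the Ccrl2- array, with a median of -0.455 against 0.0 over all genes. The largest gaps were those of Sfrp2 (7.29 against 8.26, -0.97) and Fzd2 (8.55 against 9.42, -0.87), matched in size by 0.360% and 0.730% of genes. Both genes lay under 10.51 on these arrays, and negative controls were often as far apart. Of those past the floor, 20.4% differed by as much as Fzd2, and 15.8% by at least 2-fold, which is more than either gap. Of 7 fibroblast markers past the floor in the same comparison 5 were lower and 2 higher, with a median of -0.45. They ranged from -1.23 (Col1a1, 10.07 against 11.3) to 0.01.

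Other genes of the pathway were taken from lists made by role. Their counts stand against 11.0% of all genes called over PBS with either secretome in fibroblasts, and 0.839% (Ccrl2+) and 1.53% (Ccrl2-) in cardiomyocytes. Of the genes of ligand secretion and receptor turnover at the surface, 10 of 15 on the array were past the floor in fibroblasts. With Ccrl2+ over PBS 1 of the 10 was at least 2-fold higher and 3 lower. Kremen1, a Dkk co-receptor, lay at 9.02 against 7.93, Tpbg, a Wnt-inhibitory membrane protein, at 7.2 against 8.86, the glypican Gpc6 at 12.6 against 13.65, and Cthrc1, a secreted protein of activated fibroblasts, at 7.17 against 10.98. With Ccrl2- 0 of the 10 were higher and 2 lower, Gpc4 at 11.86 against 13.01 and Cthrc1 at 9.98. Wls, the carrier that brings Wnt ligands to the surface, lay between 13.33 and 14.81 on the 6 arrays and differed by less than 2-fold between arrays of 1 cell type. Lgr4, an R-spondin receptor, was higher with Ccrl2+ than with Ccrl2- (11.95 against 10.62). In cardiomyocytes Gpc3 was higher with Ccrl2- than in PBS (9.52 against 8.07) and no other gene of this list reached 2-fold.

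Of the beta-catenin destruction complex and its nuclear partners inside the cell, 20 of 21 genes were past the floor in each comparison. With Ccrl2+ over PBS in fibroblasts 0 were higher and 1 lower, the nuclear cofactor gene Pygo1 (6.26 against 8.04, at least 1.49 lower). With Ccrl2- 0 of the 20 were higher and 3 lower, where 6.18% of all genes were higher and 4.83% lower. The lower ones were Tcf7l2, a main TCF factor, at 11.89 against 13.19, and Amer1 (7.62 against 8.62) and Tcf7l1 (8.13 against 9.13) exactly at 2-fold. The kinase genes Gsk3b and Csnk1a1 and the scaffold gene Apc differed by at most 0.41 in size between fibroblast arrays. In cardiomyocytes 0 of 20 reached 2-fold in any secretome comparison, where at most 1.53% of all genes did. Lef1 was under the floor on all arrays (3.77 to 4.09).

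Receptors and effectors of planar cell polarity showed 2 genes at 2-fold higher and 0 lower with Ccrl2+ over PBS in fibroblasts, of 11 past the floor. Of all genes 4.87% were higher and 6.13% lower there. With Ccrl2- 0 of the 11 were higher and 1 lower, where 6.18% of all genes were higher and 4.83% lower. The higher genes with Ccrl2+ were Ror1, a co-receptor for Wnt5a, at 10.63 against 8.98, and Daam2, a formin that binds dishevelled, at 11.45 against 9.69. With Ccrl2- the lower gene was Daam2, at 8.13 against 9.69. Ror1 and Daam2 were thus higher with Ccrl2+ than with Ccrl2-, by 2.36 and 3.32. In cardiomyocytes 0 reached 2-fold. In PBS, Ror1 lay at 8.98 in CF and 10.41 in CM.

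Among genes often read as targets of beta-catenin, 8 of 13 on the array were past the floor in fibroblasts. With Ccrl2+ over PBS 0 of the 8 were at least 2-fold higher and 1 lower, where 4.87% of all genes were higher and 6.13% lower. The lower one was the matricellular gene Ccn4 (7.66 against 10.52). With Ccrl2- 1 of the 8 was higher, the growth regulator Myc (13.56 against 12.27), and 2 were lower, Ccn5 (14.39 against 15.66) and Dact1 (7.65 against 8.69). The feedback genes Nkd1 (8.0 with Ccrl2+, 7.35 with Ccrl2-, 7.77 in PBS) and Znrf3 (8.43, 8.23 and 8.7) differed by less than 2-fold. In cardiomyocytes Ccn5 was lower with Ccrl2- than in PBS (6.34 against 7.9, at least 1.35 lower), and the others past the floor stayed under 2-fold. Sp5 and Tnfrsf19 were under the floor on all arrays, as Axin2 was.

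Set directly against Ccrl2- in fibroblasts, Ccrl2+ gave 2 higher and 2 lower of 10 genes in the secretion and surface list, 1 and 1 of 20 in the destruction complex and nuclear list, 2 and 0 of 11 in the polarity list, and 0 and 2 of 8 targets. Of all genes past the floor 18.6% were called there, 8.55% higher and 10.1% lower, so the nuclear and polarity lists lay at or below that share. The higher ones were Lgr4, Kremen1, Tcf7l2, Ror1 and Daam2, and the lower ones Cthrc1, Tpbg, Pygo1, Ccn4 and Myc. List medians over PBS, in the same order, were -0.41, -0.14, -0.09 and -0.61 with Ccrl2+, where all genes had -0.07. With Ccrl2- they were -0.58, -0.275, -0.38 and -0.53, where all genes had -0.09. In cardiomyocytes Ccn5 was the single gene of the lists past 2-fold between the secretomes (7.72 with Ccrl2+ against 6.34 with Ccrl2-, at least 1.17 higher).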

How the data were processed

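Total RNA was labelled with biotin by the standard Affymetrix protocol from 1 to 8 ug, per the labels' protocols. The authors deposited 1 log2 value per probe set and array, and the submitters' processing notes name Affymetrix Expression Console. Its version and algorithm, and the build and annotation behind it, are not stated in these sources. Sorted values of the 6 arrays differ by 0.09 on average and 0.3 at most, so an overall shift between arrays would not be seen.

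Of 28846 probe sets, 19572 had 1 symbol in the platform annotation, 0 several and 9274 none; for 55 symbols the probe set with the highest mean was kept, giving 19505 genes. All 49 members matched RefSeq by Entrez identifier, and 30 had a promoter window. Log2 levels of pairs of arrays were subtracted. The text names every member, and of each pathway list the genes past 2-fold in secretome comparisons, up to 4 by size, beside list genes given for contrast. Members and lists were chosen with earlier results of these data known, and the motifs and their forms after the data were seen. The alternatives were thresholds of 1.5-fold and 3-fold, no floor, a floor of 10.51, quantile normalization, a loess trend (span 0.4) removed, mean of probe sets, and low values raised to the floor. The counting rule (floor and 2-fold) was tested on simulated arrays, in code apart from that which made the counts. Python 3.11.15, numpy 2.4.6, pandas 2.3.3, statsmodels 0.14.6 and matplotlib 3.10.9 were used.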

Additional observations from a re-analysis of the deposited data

Results flagged for a closer look

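Apcdd1 went opposite ways in the cell types under the Ccrl2- secretome, past 2-fold in both. In fibroblasts it lay at 8.37 with the secretome against 9.6 in PBS, a difference of -1.23, and in cardiomyocytes at 8.73 against 7.56, a difference of 1.17. With 1 array per group the difference between the cell types was not tested. As large a difference was seen in 7.93% of genes and 7.85% of negative controls past the floor in fibroblasts, and in 0.865% of genes and 13.4% of negative controls in cardiomyocytes.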

How the results depend on the processing

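Of 41 member differences past 2-fold over the 7 comparisons, 0 changed sign under quantile normalization, the loess trend, the mean of probe sets or raising low values to the floor. Raising low values took 3 under 2-fold: Fzd3 with Ccrl2+ over PBS, and Rspo3 with Ccrl2- over PBS and Ccrl2+ over Ccrl2-, all in fibroblasts. The loess trend took 1, Fzd4 with Ccrl2- over PBS in fibroblasts (-0.94). Counts moved by over 1.5 times mostly with the threshold. At 1.5-fold the fibroblast counts were 11 for Ccrl2+ over PBS (6 at 2-fold), 14 for Ccrl2- over PBS (8) and 14 for Ccrl2+ over Ccrl2- (6), where 26.4%, 25.5% and 37.5% of all genes were called in that order. The cardiomyocyte count for Ccrl2+ over Ccrl2- was 4 (0 at 2-fold), all 4 lower with Ccrl2+, against 4.71% of genes. At 3-fold the counts were 2, 2 and 3 in fibroblasts (4.25%, 4.94% and 8.46% of genes), and 0 for both secretomes over PBS in cardiomyocytes (1 for Ccrl2+ and 3 for Ccrl2- at 2-fold), with 0.0799% and 0.189% of genes. With a floor of 10.51 the count was 2 of the 12 members left for Ccrl2+ over PBS in fibroblasts (10.0% of genes), and 0 of the 5 left for both cardiomyocyte comparisons with PBS (0.501% with Ccrl2+ and 0.736% with Ccrl2- of genes). No paired analysis was possible because each group had 1 array. Signal over background limits the ligands most, since 18 of 19 lay under the floor.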
